A study of Mus musculus with 6 samples.

Results

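The TNF ligand and receptor superfamilies were followed in mouse bone marrow-derived macrophages that had been cultured with mEC25, a cancer cell line. The members are the 45 genes, of 56691 in the deposited table, whose symbol begins with Tnfsf or Tnfrsf, together with Tnf, Lta, Ltb, Ltbr, Cd40, Cd40lg, Fas, Fasl, Cd27, Cd70, Ngfr and Eda2r. They comprise 17 ligands, 26 receptors and 2 further transcripts of the Tnfsf12 and Tnfsf13 locus. All 6 libraries came from bone marrow cells treated with M-CSF, the macrophage growth factor, and the macrophages were sorted after the co-culture. In 3 libraries they had grown in contact with mEC25 (contact), and in 3 libraries without contact (titled as transwell, a membrane insert). The labels give no strain, age or co-culture time and do not say whether replicates were separate cultures, so p-values cover the spread between these libraries, which may be technical.

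Ligands of the TNF superfamily are mostly trimeric membrane proteins, some of which are shed by proteases, and their receptors fall into those with a death domain, such as Tnfrsf1a and Fas, those that bind TRAF adaptors, such as Tnfrsf1b and Cd40, and decoys that bind ligand without signalling. Macrophages are a main source of TNF itself, and respond to it through both of its receptors. Other members regulate T cell costimulation, B cell survival, osteoclast formation and cell death.

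Of the 45 members, 36 were measured, meaning 30 or more counts summed over the 6 libraries, and 29 of them passed the filter on low counts and were tested. Levels are FPKM (counts scaled for gene length and library total) as deposited, and log2 changes are contact minus transwell from the counts by edgeR's quasi-likelihood test, with p-values adjusted over all 14113 genes tested. A gene is called at an adjusted p under 0.05.

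Library totals lay between 18173192 and 22563835 counts. The 12 macrophage markers were all detected, with a summed level of 15211 to 16977 FPKM in contact and 17230 to 18366 FPKM in transwell libraries. Most of that sum was Lyz2 (11412 to 13076 against 12817 to 13785 FPKM), and other markers went both ways. Adgre1 (521.0 to 635.1 against 1164 to 1323 FPKM) and Fcgr1 (30.2 to 33.6 against 108.3 to 110.3 FPKM) were lower in every contact library. C1qa (493.9 to 589.9 against 405.5 to 424.0 FPKM) and Csf1r (342.4 to 391.1 against 273.6 to 290.0 FPKM) were higher. The 32 epithelial markers, among them keratins and desmosome genes, summed to 990.4 to 1742 FPKM in contact and 5.09 to 6.02 FPKM in transwell libraries, where Cldn4, Dsg3, Grhl2 and Krt15 had no count. Fibroblast markers stood at 10.1 to 24.2 against 3.31 to 7.84 FPKM, mostly Col1a1 (6.20 to 15.35 against 1.78 to 4.86 FPKM). Endothelial markers stood at 11.8 to 14.1 against 5.82 to 6.63 FPKM, mostly Pecam1 (11.03 to 12.94 against 5.60 to 6.25 FPKM). The other endothelial markers were at most 0.56 FPKM in any library. Of these, Cdh5 and Kdr were higher in every contact library, Emcn and Tie1 overlapped, and Tek was at 0 in transwell libraries. The sum of 8 neutrophil markers, mostly S100a8 and S100a9, overlapped between the groups (757.1 to 1123 against 485.4 to 1142 FPKM). Of these markers the granule enzyme genes Elane (21.24 to 35.48 against 2.68 to 6.08 FPKM) and Mpo (16.18 to 24.61 against 1.72 to 5.67 FPKM) were higher in every contact library. T cell (2.46 to 2.84 against 2.85 to 3.72 FPKM), B cell (5.01 to 6.75 against 6.89 to 9.40 FPKM), dendritic cell (2.06 to 3.35 against 2.31 to 4.39 FPKM) and NK cell markers (0.17 to 0.27 against 0.15 to 0.59 FPKM) were low in both, with Gzma at 0 in contact libraries. The part of epithelial RNA in the changes of the members was not tested, and in such bulk libraries fewer cells of a type and less RNA per cell cannot be told apart.

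The sequences around the start sites of 4 members are shown first. Tnf is the founding ligand, and Tnfrsf12a had the largest change among the 29 tested members. Tnfsf14 and its receptor Tnfrsf14 were both lower in contact, in calls that ended in 3 and 4 of 14 alternative fits. Each sequence runs 5′ to 3′ in the gene's direction from 250 bases before to 50 bases after the start, from RefSeq on GRCm38.p6, and lies at chr17:35201958-35202257, minus strand (Tnf), chr17:23677400-23677699, minus strand (Tnfrsf12a), chr17:57194132-57194431, minus strand (Tnfsf14) and chr4:154928028-154928327, minus strand (Tnfrsf14). Capitals mark matches, on either strand, to TATAAA (the TATA box), to TGANTCA (the AP-1 site), to GAAANNGAA (the core of the interferon response element) or to the NF-kB consensus.
Tnf: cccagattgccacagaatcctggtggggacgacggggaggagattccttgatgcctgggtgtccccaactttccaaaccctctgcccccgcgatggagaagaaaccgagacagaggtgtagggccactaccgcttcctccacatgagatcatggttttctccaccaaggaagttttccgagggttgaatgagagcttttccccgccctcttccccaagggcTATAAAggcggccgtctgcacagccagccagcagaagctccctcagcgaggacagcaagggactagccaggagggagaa
Tnfrsf12a: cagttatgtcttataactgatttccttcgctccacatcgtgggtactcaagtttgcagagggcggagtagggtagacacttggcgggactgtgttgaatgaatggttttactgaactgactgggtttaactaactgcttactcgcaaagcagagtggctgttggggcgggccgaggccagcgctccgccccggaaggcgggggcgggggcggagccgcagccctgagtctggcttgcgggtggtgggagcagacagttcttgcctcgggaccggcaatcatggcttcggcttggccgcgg
Tnfsf14: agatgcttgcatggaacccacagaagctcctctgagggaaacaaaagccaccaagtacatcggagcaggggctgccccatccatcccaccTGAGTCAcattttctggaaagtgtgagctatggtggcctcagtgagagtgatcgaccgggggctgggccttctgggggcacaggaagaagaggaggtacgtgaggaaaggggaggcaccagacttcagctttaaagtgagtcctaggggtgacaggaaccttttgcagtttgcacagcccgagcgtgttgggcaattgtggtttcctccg
Tnfrsf14: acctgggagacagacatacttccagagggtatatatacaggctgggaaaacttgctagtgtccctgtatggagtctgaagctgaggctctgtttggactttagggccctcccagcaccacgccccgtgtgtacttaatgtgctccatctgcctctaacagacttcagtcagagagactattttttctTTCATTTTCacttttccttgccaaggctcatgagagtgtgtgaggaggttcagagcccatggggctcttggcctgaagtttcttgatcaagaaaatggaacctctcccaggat

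The Tnf window holds 1 match, a TATA box whose first base lies 29 bases before the start. The Tnfsf14 window holds an AP-1 site 160 bases before the start, the Tnfrsf14 window an interferon core 63 bases before it, and the Tnfrsf12a window none of the 4. Over all 32851 windows of this length in the RefSeq table, 13.6% hold a TATA box, 7.81% an AP-1 site, 8.56% an interferon core and 8.46% the NF-kB consensus. A window was given for 5 of the 8 members called higher. Of these, 1 (Tnfsf13) held an AP-1 site, 2 (Tnf and Tnfrsf23) a TATA box and none the NF-kB consensus or the interferon core. For those called lower, 6 of the 7 had a window. Of these, only Tnfsf14 held an AP-1 site and only Tnfrsf14 an interferon core, both shown above. None held the NF-kB consensus or a TATA box. Among 10 members tested and not called with a window, 3 held the NF-kB consensus (Ltb, Tnfrsf8 and Tnfrsf9), 4 an AP-1 site, 3 an interferon core and none a TATA box. Tnfrsf9 and Tnfsf13b had more than 1 window and counted if any matched, whereas the shares over all windows are per window. A match is a string of letters and not a shown site of binding, and its absence covers these 300 bases only.

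Libraries of macrophages sorted from contact culture held more Tnf transcript, less of the receptor gene Tnfrsf1a and 11.0-fold more of the receptor gene Tnfrsf12a. The costimulatory ligand genes Tnfsf4 and Tnfsf14 were lower in contact, and the ligand gene Tnfsf15 was higher. Of these, the Tnfsf14 call ended in 3 of 14 alternative fits. The contact libraries also held the epithelial marker RNA given above. Of the 29 tested members, 8 rose and 7 fell, which is 27.6% and 24.1%, where 21.4% of all tested genes rose and 16.1% fell. In either direction 15 of 29 (51.7%) were called, against 37.5% of all tested genes. Of the 15, 6 changed at least 2-fold, and so did 1997 of the 5286 called among all tested genes, a similar share. The median log2 change was 0.24 for the members and 0.03 for all tested genes. Among the 10 tested ligands 4 rose and 3 fell, and among the 17 tested receptors 4 rose and 4 fell. FPKM values of the groups did not overlap for 21 of the 29 members (72.4%), against 51.6% of all tested genes. Contact was above for 15 of these members and below for 6. This split was not taken over all genes, and FPKM is scaled by library total only. The number that rose was 5 without transwell replicate 3, contact replicate 2 or contact replicate 3, and the number that fell was 4 without contact replicate 1. Of the 8 that rose in the reported fit, 4 kept the call without transwell replicate 3. With library totals alone as the scale, 13 members rose and 7 fell, and over all genes 3945 rose and 1450 fell, compared with 3016 and 2270 in the scaled fit. That scale moved the median log2 change of all genes from 0.03 to 0.14.

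**Figure D1:**
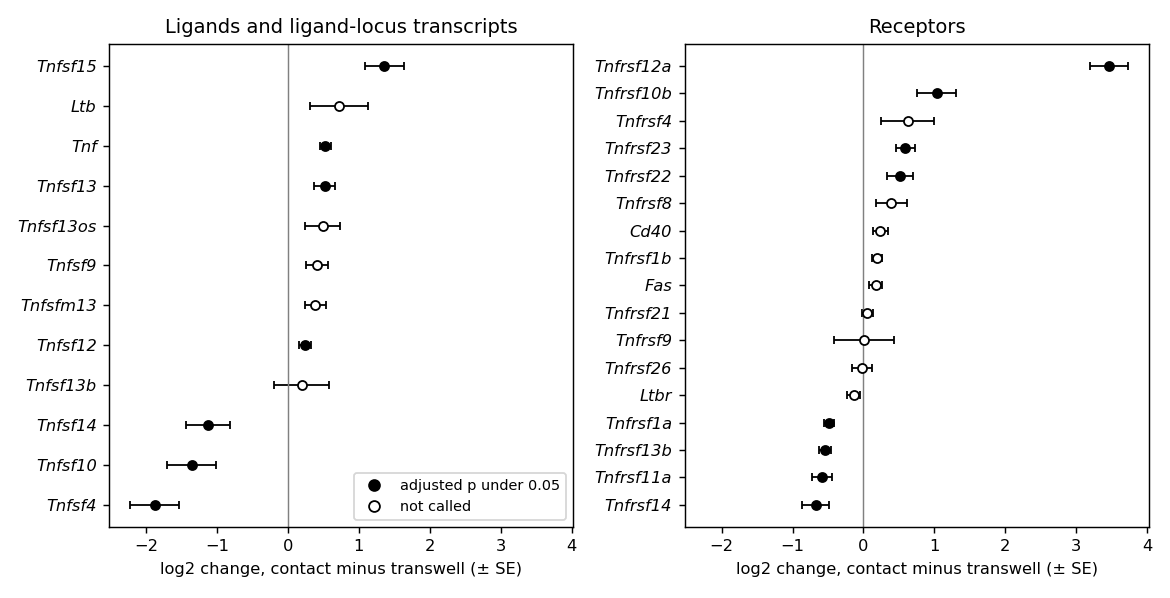
Log2 change (contact minus transwell, ± SE, 3 libraries a group) of the 29 tested members, with ligands and locus transcripts on the left and receptors on the right. Filled points are the 15 with an adjusted p under 0.05; Tnfrsf12a stands apart at 3.46, and Tnfsf4, Tnfsf10 and Tnfsf14 are the lowest.

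Levels spanned more than 3 orders of magnitude on the FPKM scale. Tnfrsf1b, Tnfrsf1a and Tnf were the 3 measured members with a mean of 50 FPKM or more in at least 1 group. A further 8 (Fas, Ltbr, Tnfrsf11a, Tnfrsf12a, Tnfrsf13b, Tnfrsf14, Tnfrsf21 and Tnfsf12) lay between 10 and 50, 13 between 1 and 10, and 12 under 1 FPKM. Tnfrsf1b was the highest member in every library and made up 56.3 to 58.2% of the summed receptor level in contact and 50.8 to 52.1% in transwell libraries. Tnf made up 63.0 to 63.6% of the summed ligand level in contact and 57.5 to 60.7% in transwell libraries. In contact Tnf (62.7 ± 2.0 FPKM, SD, n = 3) and Tnfrsf1a (60.9 ± 2.15 FPKM) lay within their spread of each other, while in transwell libraries Tnfrsf1a (78.8 ± 4.74 FPKM) lay above Tnf (40.1 ± 3.02 FPKM). By mean level Tnfrsf12a was 7th of the 36 measured members in contact and 18th in transwell libraries.

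**Figure D2:**
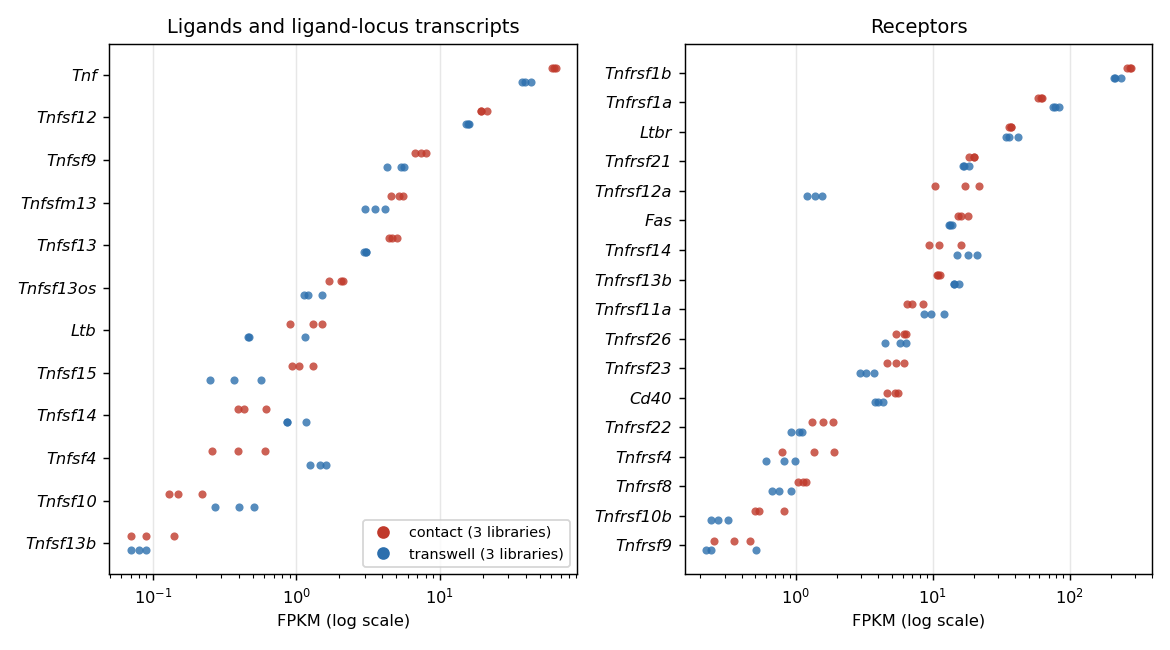
FPKM on a log scale in each of the 6 libraries for the 29 tested members, with ligands and locus transcripts on the left and receptors on the right, each ordered by level; red points are contact and blue points transwell libraries. Tnfrsf1b is highest throughout at 211.4 to 281.2 FPKM, and the groups of Tnfrsf12a lie farthest apart.

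Tnf encodes the founding cytokine of the family, which induces inflammatory genes in most cells (ENSMUSG00000024401, chromosome 17, 35199381 to 35202007 on GRCm38, protein-coding). It stood at 62.79, 64.63 and 60.63 FPKM in contact replicates 1 to 3 and at 43.40, 37.50 and 39.33 FPKM in transwell replicates 1 to 3. Every contact library lay above every transwell library. The change was 1.44-fold (log2 change 0.53 ± 0.08, SE, edgeR adjusted p = 7.26e-04), and it was called under all 14 alternatives, with log2 changes of 0.45 to 0.65. The neighbouring lymphotoxin genes on chromosome 17 were much lower. Ltb, whose product joins lymphotoxin alpha in a membrane trimer, stood at 1.52, 0.91 and 1.31 FPKM in contact and 1.15, 0.47 and 0.46 FPKM in transwell libraries. These groups overlapped (log2 change 0.72 ± 0.41, adjusted p = 0.201), and the call was made without transwell replicate 1 (1.31, adjusted p = 0.0261). Lta had 18 counts in contact and 12 in transwell libraries and was too low for the test.

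Tnfrsf1a encodes the widely expressed TNF receptor with a death domain (ENSMUSG00000030341, chromosome 6, 125349362 to 125362484). It measured 62.93, 58.65 and 61.21 FPKM in contact and 84.13, 77.41 and 74.97 FPKM in transwell libraries, and all contact libraries were below all transwell libraries. It fell by 0.49 ± 0.08 on the log2 scale (adjusted p = 7.25e-04), or 1.40-fold, and was called under all 14 alternatives. Tnfrsf1b, the TNF receptor of leukocytes that binds TRAF2 (ENSMUSG00000028599, chromosome 4, 145213463 to 145246870), measured 274.06, 263.51 and 281.20 FPKM in contact and 235.47, 211.40 and 214.01 FPKM in transwell libraries. Its groups did not overlap, but it did not pass the test (log2 change 0.19 ± 0.07, adjusted p = 0.0641). It was called higher under 4 of 14 alternatives, namely library totals alone, both limma fits and without transwell replicate 1 (0.25, adjusted p = 0.0174). The ratio of Tnfrsf1b to Tnfrsf1a FPKM, which needs no scaling between libraries, was 4.35, 4.49 and 4.59 in contact and 2.80, 2.73 and 2.85 in transwell libraries. The contact mean of 4.48 ± 0.12 lay above the transwell mean of 2.79 ± 0.06 by 1.69 (SD, n = 3; exact two-sided permutation p = 0.1, the smallest that 3 against 3 allows, in a family of 5 ratios and sums that all gave 0.1).

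**Figure D3:**
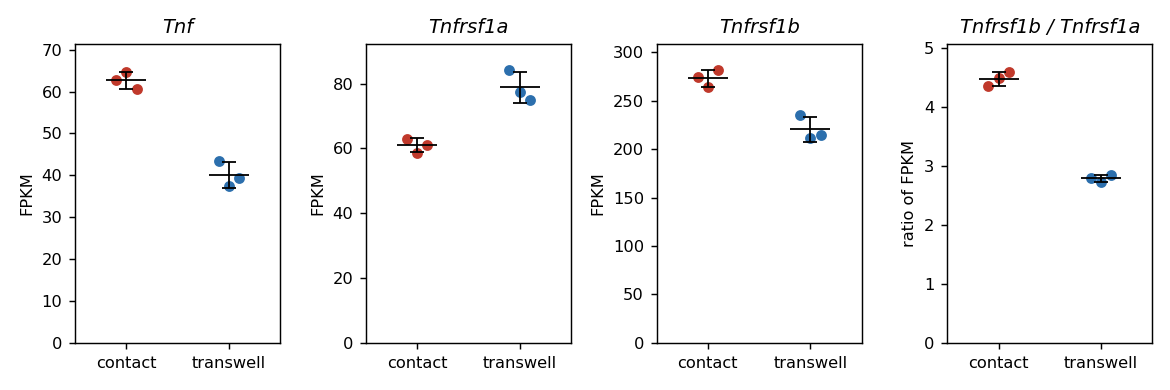
FPKM of Tnf, Tnfrsf1a and Tnfrsf1b and the ratio of Tnfrsf1b to Tnfrsf1a, with 1 point per library and bars for the mean and SD of 3 libraries. Contact points lie above transwell points for Tnf, Tnfrsf1b and the ratio (4.35 to 4.59 against 2.73 to 2.85) and below them for Tnfrsf1a.

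Tnfrsf12a encodes Fn14, the receptor of the cytokine TWEAK, which is common on epithelial and mesenchymal cells (ENSMUSG00000023905, chromosome 17, 23675445 to 23677468). It measured 17.27, 21.71 and 10.42 FPKM in contact and 1.56, 1.20 and 1.37 FPKM in transwell libraries. The lowest contact library lay far above the highest transwell library, and the contact libraries were spread more widely than those of Tnf. The rise was 11.0-fold (log2 change 3.46 ± 0.27, adjusted p = 1.05e-05), called under all 14 alternatives with log2 changes of 2.82 to 3.70. Relative to their mean, contact replicates 1, 2 and 3 held 1.05, 1.32 and 0.63 of Tnfrsf12a and 0.89, 1.34 and 0.76 of the summed epithelial markers, so both were highest in replicate 2 and lowest in replicate 3. Its ligand gene Tnfsf12, encoding TWEAK, measured 19.45, 21.34 and 19.53 FPKM in contact and 16.00, 15.18 and 15.78 FPKM in transwell libraries. The groups did not overlap and the call was narrow (log2 change 0.24 ± 0.08, adjusted p = 0.0457).

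The Tnfsf12 call ended under 10 of 14 alternatives. The value was 0.19 without transwell replicate 2, 0.25 without transwell replicate 3, 0.27 without contact replicate 1, 0.21 without contact replicate 2 and 0.26 without contact replicate 3, and DESeq2 gave 0.23 (adjusted p = 0.107). Its neighbour Tnfsf13 encodes APRIL, a survival factor of plasma cells. It measured 4.63, 4.44 and 5.09 FPKM in contact and 2.97, 3.06 and 3.09 FPKM in transwell libraries, and the groups did not overlap. Tnfsf13 rose by a log2 change of 0.52 ± 0.14 (adjusted p = 0.0187), a call that ended in 5 of 14 alternatives, among them the fits without transwell replicate 2 (0.49), transwell replicate 3 (0.53), contact replicate 1 (0.53) or contact replicate 3 (0.46). The read-through transcript Tnfsfm13, which joins both genes, shares 731 exonic bases with Tnfsf12 and 983 with Tnfsf13 in GENCODE M21. The antisense gene Tnfsf13os shares 221 with Tnfsf13. No label or header says how reads of shared bases were assigned, so the 4 values are uncertain. Tnfsfm13 stood at 5.10 ± 0.51 FPKM in contact and 3.60 ± 0.58 FPKM in transwell libraries (log2 change 0.39, adjusted p = 0.0744), and it was called under 4 of 14 alternatives, 1 of them without transwell replicate 1 (0.52). Tnfsf13os stood at 1.96 ± 0.23 against 1.29 ± 0.20 FPKM (0.49, adjusted p = 0.151).

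The receptor of APRIL and BAFF went the other way. Tnfrsf13b, encoding TACI (ENSMUSG00000010142, chromosome 11, 61126755 to 61149372), measured 10.64, 11.21 and 10.94 FPKM in contact and 15.49, 14.16 and 14.30 FPKM in transwell libraries. The groups were narrow and did not overlap. It fell by 0.54 ± 0.08 (log2, adjusted p = 7.14e-04), 1.45-fold, and was called under all 14 alternatives. Tnfsf13b, the gene of BAFF, was close to the detection limit at 0.10 ± 0.04 and 0.08 ± 0.01 FPKM (log2 change 0.19 ± 0.39, adjusted p = 0.741). The BAFF receptor gene Tnfrsf13c had 7 counts in all and Tnfrsf17, encoding BCMA, had 2.

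Costimulatory ligand genes split. Tnfsf4, which encodes OX40L, a costimulator of T cells (ENSMUSG00000026700, chromosome 1, 161395409 to 161418410), measured 0.26, 0.39 and 0.61 FPKM in contact and 1.61, 1.25 and 1.46 FPKM in transwell libraries. The highest contact library was below the lowest transwell library. It fell 3.68-fold (log2 change -1.88 ± 0.34, adjusted p = 0.0019) and was called under all 14 alternatives. The OX40 gene Tnfrsf4 stood at 1.36, 1.89 and 0.79 against 0.81, 0.60 and 0.99 FPKM, with overlapping groups (0.63 ± 0.37, adjusted p = 0.224).

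Tnfsf14, encoding LIGHT (ENSMUSG00000005824, chromosome 17, 57189492 to 57194177), was counted 18, 24 and 16 times in contact and 41, 29 and 30 times without contact, or 0.43, 0.62 and 0.39 against 1.17, 0.86 and 0.87 FPKM. All contact libraries were lower, and it fell 2.19-fold (log2 change -1.13 ± 0.31, adjusted p = 0.0173). That call ended without transwell replicate 1 (-0.96), contact replicate 1 (-1.06) or contact replicate 3 (-1.0). Tnfrsf14, the gene of HVEM, a receptor of LIGHT (ENSMUSG00000042333, chromosome 4, 154921933 to 154928563), measured 11.13, 9.38 and 16.04 FPKM in contact and 15.02, 20.97 and 18.05 FPKM in transwell libraries. Contact replicate 3 lay above transwell replicate 1, so the groups overlapped. Tnfrsf14 fell 1.60-fold (-0.68 ± 0.19, adjusted p = 0.0208), a call that ended in limma on log2(FPKM + 1) (adjusted p = 0.051) and without transwell replicate 3 (-0.68), contact replicate 1 (-0.62) or contact replicate 2 (-0.51). Ltbr, encoding the lymphotoxin beta receptor that also binds LIGHT, stood at 36.8 ± 0.93 against 37.4 ± 3.96 FPKM (-0.14 ± 0.09, adjusted p = 0.264) and was not called under any of the 14 alternatives.

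Tnfsf15, encoding TL1A (ENSMUSG00000050395, chromosome 4, 63727084 to 63745113), measured 0.94, 1.05 and 1.31 FPKM in contact and 0.25, 0.57 and 0.37 FPKM in transwell libraries. All contact libraries were above all transwell libraries. It rose 2.57-fold (log2 change 1.36 ± 0.28, adjusted p = 0.00401) and was called under all 14 alternatives. Its level was highest in contact replicate 3, the library with the lowest epithelial marker sum, but the part of epithelial RNA in the rise was not tested. The TL1A receptor gene Tnfrsf25 was counted 13, 11 and 10 times in contact and 3, 4 and 3 times without contact, and was not tested in the filtered fit. With every gene of 30 or more counts tested, its log2 change was 1.37 ± 0.49 (edgeR adjusted p = 0.0531). Tnfsf9, encoding 4-1BBL, stood at 8.0, 7.38 and 6.77 against 4.31, 5.42 and 5.68 FPKM. Its groups did not overlap and it was not called (0.41 ± 0.15, adjusted p = 0.0576), though library totals alone and both limma fits called it. The 4-1BB gene Tnfrsf9 was low, at 0.35 ± 0.11 and 0.32 ± 0.16 FPKM (adjusted p = 0.994).

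Genes of the TRAIL system moved in opposite directions. Tnfsf10, encoding the death ligand TRAIL (ENSMUSG00000039304, chromosome 3, 27317028 to 27342427), was counted 16, 24 and 17 times in contact and 27, 38 and 50 times without contact, or 0.13, 0.22 and 0.15 against 0.27, 0.40 and 0.51 FPKM. All contact libraries were lower in FPKM. It fell 2.56-fold (log2 change -1.36 ± 0.34, adjusted p = 0.0114), a call that ended without transwell replicate 3 (-1.13) or contact replicate 1 (-1.23). Tnfrsf10b, the TRAIL death receptor gene (ENSMUSG00000022074, chromosome 14, 69767472 to 69784411), measured 0.50, 0.81 and 0.54 FPKM in contact and 0.32, 0.27 and 0.24 FPKM in transwell libraries. The groups did not overlap, and it rose 2.04-fold (1.03 ± 0.27, adjusted p = 0.0143). That call ended without transwell replicate 3 (0.93) or contact replicate 2 (0.80), and it held when any other library was left out. Contact replicate 2 had the highest epithelial marker sum, whose part in the call was not tested.

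The decoy receptor genes Tnfrsf22 and Tnfrsf23 lie beside Tnfrsf26 on chromosome 7. Tnfrsf23 measured 5.40, 6.19 and 4.59 FPKM in contact and 3.74, 2.93 and 3.23 FPKM in transwell libraries, without overlap, and rose 1.51-fold (log2 change 0.59 ± 0.14, adjusted p = 0.00753) under every alternative. Tnfrsf22 measured 1.30, 1.87 and 1.58 against 0.92, 1.10 and 1.05 FPKM, also without overlap. It was called at the edge of the threshold (0.52 ± 0.18, adjusted p = 0.0491), and 10 of 14 alternatives ended the call. Without transwell replicates 1, 2 and 3 in turn its value was 0.45, 0.54 and 0.53, and without contact replicates 2 and 3 it was 0.39 and 0.52. Tnfrsf26 stood at 5.95 ± 0.52 and 5.55 ± 0.99 FPKM (-0.02 ± 0.14, adjusted p = 0.946). These are related copies, Tnfrsf23 shares 164 exonic bases with an antisense gene and Tnfrsf26 shares 107 with it, so the division of reads between them is uncertain.

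Tnfrsf11a, encoding RANK, the osteoclast differentiation receptor of the macrophage lineage (ENSMUSG00000026321, chromosome 1, 105780718 to 105847981), measured 7.05, 6.49 and 8.40 FPKM in contact and 8.68, 12.11 and 9.62 FPKM in transwell libraries. The highest contact library lay just below the lowest transwell library. It fell 1.5-fold (log2 change -0.58 ± 0.14, adjusted p = 0.00814) and was called under all 14 alternatives. Its ligand gene Tnfsf11, encoding RANKL, was counted 9, 17 and 0 times in contact and 2, 1 and 0 times without contact (7.34 times higher per library total, exact 95% interval 2.25 to 37.9). The interval covers counting error only, and the Tnfsf11 groups overlapped. The decoy gene Tnfrsf11b, encoding osteoprotegerin, had 16 counts in contact and 14 in transwell libraries.

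Receptor genes for CD40 ligand and Fas ligand were not called. Cd40 stood at 4.65, 5.52 and 5.28 against 4.32, 3.97 and 3.78 FPKM (log2 change 0.24 ± 0.11, adjusted p = 0.114), and Fas, a death receptor gene, at 15.97, 15.31 and 17.93 against 13.40, 13.10 and 13.76 FPKM (0.17 ± 0.09, adjusted p = 0.176). The groups of both were apart in FPKM, and both were called higher with library totals alone and in both limma fits, which use no scaling between libraries beyond the total. Their ligand genes were at the floor, with 1 count of Cd40lg and 10 of Fasl in all. Tnfrsf21, encoding the death receptor DR6, stood at 19.5 ± 0.98 and 17.4 ± 0.91 FPKM (0.05 ± 0.08, adjusted p = 0.645). Tnfrsf8, encoding CD30, stood at 1.11 ± 0.07 and 0.78 ± 0.13 FPKM (0.40 ± 0.21, adjusted p = 0.18). Its ligand gene Tnfsf8 had 3 counts in contact and 13 in transwell libraries (5.12 times higher in transwell per library total, exact 95% interval 1.41 to 28.0). That interval covers counting error only. The Tnfsf8 groups overlapped (1, 0 and 2 against 8, 4 and 1 counts), and edgeR with no filter did not call it (adjusted p = 0.14).

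Of 27 ligand and receptor pairs, 13 had both genes tested. In 5 of them both were called in opposite directions (Tnf with Tnfrsf1a, Tnfsf13 with Tnfrsf13b, and Tnfsf10 with Tnfrsf10b, Tnfrsf22 and Tnfrsf23). In 2 both were called in the same direction, with Tnfsf12 and Tnfrsf12a higher and Tnfsf14 and Tnfrsf14 lower. In the other 6 at least one gene was not called. These counts rest on single libraries: without transwell replicate 3 or contact replicate 1, 1 opposite pair and no pair in the same direction had both calls. Without transwell replicate 2, contact replicate 2 or contact replicate 3, there were 3 opposite pairs, and the pairs in the same direction numbered 1, 0 and 0. Pairs that share a ligand or a receptor are not independent, and no test was made over them.

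**Figure D4:**
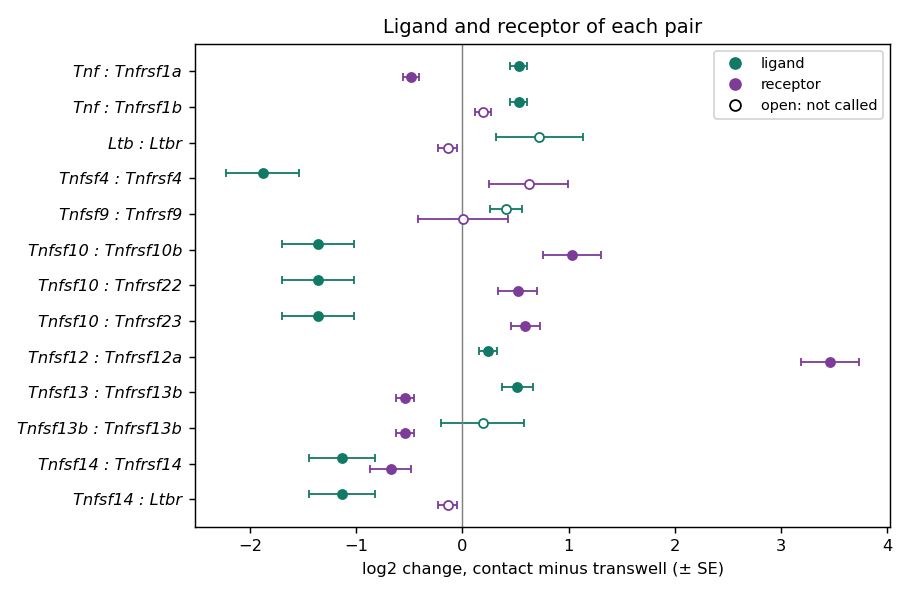
Log2 change (± SE) of the ligand (green) and the receptor (purple) for the 13 pairs with both genes tested; open points are not called. Among pairs with both genes called, ligand and receptor lie on opposite sides of 0 for Tnf with Tnfrsf1a, Tnfsf13 with Tnfrsf13b and the 3 TRAIL pairs. The called pairs on the same side are Tnfsf12 with Tnfrsf12a and Tnfsf14 with Tnfrsf14.

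Some members had too few counts for the filtered fit. Ngfr, the gene of the p75 neurotrophin receptor, was counted 11, 12 and 11 times in contact and 0, 0 and 2 times without contact, and Tnfrsf19, also called Troy, 13, 9 and 3 against 0, 1 and 0 times. Per library total Ngfr was 14.4 times higher in contact (exact 95% interval 3.69 to 124.0) and Tnfrsf19 21.2 times (3.47 to 870.0), intervals that cover counting error only. Both differed in the same direction as the epithelial marker sum, whose part in them was not tested. When genes of 30 or more counts were tested, Ngfr was higher in contact (log2 change 3.53 ± 0.85, edgeR adjusted p = 0.00948), a fitted value that depends on the prior count. Tnfrsf18, encoding GITR, had 13, 12 and 11 counts against 8, 3 and 4 (0.89 ± 0.50, adjusted p = 0.207 in that fit). Eda2r (28 against 9 counts), Lta, Cd27 (16 against 20) and Tnfrsf11b were not called there. With no filter, Ngfr, Tnfrsf19 (adjusted p = 0.00482) and Tnfsf11 (adjusted p = 0.0278) were called higher, Tnfrsf19 on 1 transwell count and Tnfsf11 on 3. The 9 members under 30 counts were Tnfsf11 (29), Tnfrsf19 (26), Tnfsf8 (16), Fasl (10), Tnfrsf13c (7), Cd70 (5), Tnfrsf17 (2), Tnfsf18 (2) and Cd40lg (1). At these totals a difference was not detectable for most of them. Of superfamily genes outside the naming rule, Relt fell from 6.58 ± 0.84 to 4.88 ± 0.82 FPKM (log2 change -0.55, adjusted p = 0.0141), while Eda had 18 counts in all and Edar 1.

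The contact libraries differed among themselves in epithelial marker level, with replicate 2 highest, replicate 1 next and replicate 3 lowest. Of the 8 members that rose, 3 had the same order (Tnf, Tnfrsf12a and Tnfrsf23), or 37.5%, and of all genes that rose 44.3% had it. The spread of Tnf was small, at 0.97 to 1.03 of its contact mean. That of Tnfrsf23 was 0.85 to 1.15, and that of Tnfrsf12a, 0.63 to 1.32, was close to the 0.76 to 1.34 of the epithelial markers. Tnfrsf10b and Tnfrsf22 were highest in replicate 2 but lowest in replicate 1, and Tnfsf15 and Tnfsf13 were highest in replicate 3. Among those that fell, Tnfrsf14, Tnfrsf11a and Tnfsf4 were highest in replicate 3, and Tnfsf14 had the epithelial order.

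**Figure D5:**
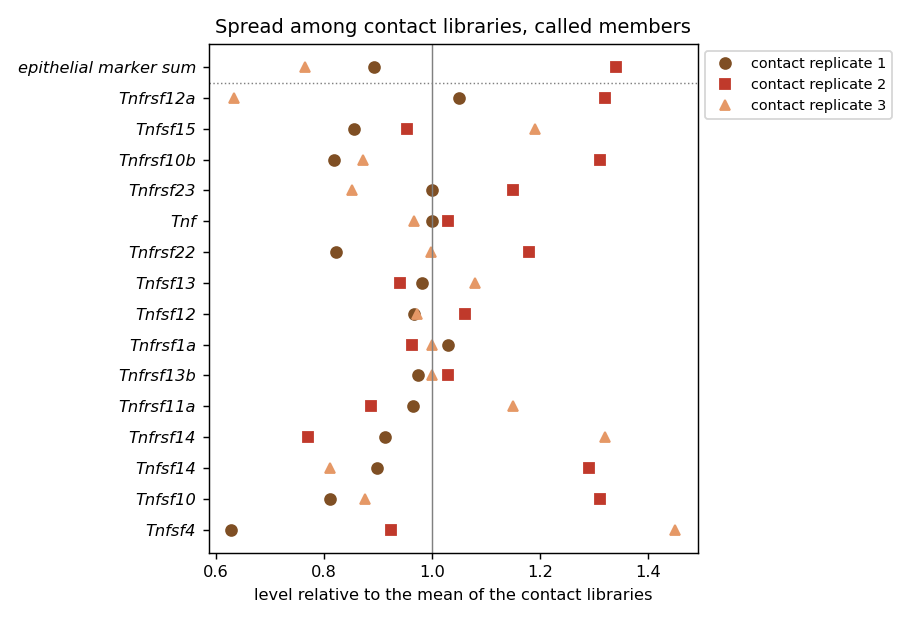
Level in each of the 3 contact libraries relative to their mean, for the 15 called members and, above the dotted line, the summed epithelial markers. Tnfrsf12a spans 0.63 to 1.32 in the order of the markers, and Tnf stays between 0.97 and 1.03.

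Of 46 genes that act downstream of the receptors or release the ligands, all tested, 18 (39.1%) were called and 28 were not, a share near the 37.5% of all tested genes. In this list 14 rose (30.4%) and 4 fell (8.7%), against 21.4% and 16.1% of all tested genes, with a median log2 change of 0.19. The number that rose was 8 without transwell replicate 3, 9 without contact replicate 1 and 9 without contact replicate 3. Tnfaip3, encoding A20, a deubiquitinase that restrains TNF signalling, rose from 14.4 ± 0.69 to 33.7 ± 4.24 FPKM (1.11 ± 0.10, adjusted p = 2.1e-05). The TRAF adaptor gene Traf4 went from 0.11 ± 0.03 to 4.6 ± 2.02 FPKM (5.25 ± 0.39) and Rhbdf1, an iRhom gene that assists the TNF sheddase, from 0.24 ± 0.06 to 2.20 ± 0.74 FPKM (3.04 ± 0.28). Map3k5, encoding the stress kinase ASK1 (1.02 ± 0.08), and Traf1 (0.55 ± 0.11) rose too. Traf4, Rhbdf1 and Map3k5 had the order of the epithelial markers over the contact libraries, which is 3 of the 14 that rose (21.4%), against 44.3% of all genes that rose. The 4 that fell were Bid, a substrate of caspase-8 (9.77 ± 0.40 to 7.14 ± 0.16 FPKM), Rnf31, a subunit of the linear ubiquitin ligase (-0.54 ± 0.08), Mlkl, the executor of necroptosis (-0.41 ± 0.08), and Casp8 (-0.28 ± 0.07).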

How the data were processed

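RNA from sorted macrophages was sequenced in 3 contact and 3 transwell libraries, grouped by their titles. The authors deposited raw read counts and FPKM per Ensembl gene and library, per the file headers, with the exonic length in a further column. Of FPKM values with a count above 100, 99.93% lay within 1% of count over length and library total. GRCm38 and mm10 appear as builds in the submitters' processing notes. Aligner, counter and strand use are not given in the sources. Table coordinates differed from GENCODE M21 for every member, so positions come from GENCODE M21 on GRCm38 by gene ID, and promoters from RefSeq on GRCm38.p6.

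Counts were filtered with filterByExpr (minimum count 10), scaled with TMM and tested with edgeR 4.0.16 (quasi-likelihood, two-sided, Benjamini-Hochberg, R 4.3.3), after a trial on simulated data. The SE is the absolute log2 change over the square root of F. Overlap of groups was judged on FPKM without TMM. The 14 alternatives were 2 other scalings, 2 other filters, DESeq2 1.42.0, limma 3.58.1 on log2(FPKM + 1) and log2(FPKM + 0.1), the replicate block and each library left out. Replicates differed beyond sampling noise (chi-square of 6.38 or more per degree of freedom). Members and lists were chosen with earlier results of these data known. Every member was described, with full statistics for called ones, and of the signalling list the 5 largest rises and the called falls. Intervals and floors would cover counting error only.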

Additional observations from a re-analysis of the deposited data

How the results depend on the processing

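The number of members that rose was 8 in the fit reported, 13 with library totals alone, 15 in limma on log2(FPKM + 1) and 14 in limma on log2(FPKM + 0.1). It was 5 to 11 when 1 library was left out, and the number that fell was then 4 to 7. Of the 8 that rose in the fit reported, 4 to 7 kept the call in those fits. The signalling genes that rose numbered 8 to 14 with 1 library left out. Over all genes tested, 2270 fell in the fit reported, 1450 with library totals alone, 1422 in limma on log2(FPKM + 1) and 1442 in limma on log2(FPKM + 0.1). No called change of a member reversed under these alternatives. Tnf, Tnfrsf12a, Tnfrsf23, Tnfsf15, Tnfrsf1a, Tnfrsf11a, Tnfrsf13b and Tnfsf4 were called under all 14 alternatives. On log2(FPKM + 1) the changes of low members shrank by construction, to -0.79 for Tnfsf4, -0.25 for Tnfsf10, -0.41 for Tnfsf14, 0.59 for Tnfsf15 and 0.34 for Tnfrsf10b. The cause of the lost calls was not tested. Deviations of same-numbered libraries from their group means correlated at 0.12, -0.45 and 0.16 for replicates 1, 2 and 3. Libraries of different number gave -0.51 to 0.41. Deviations within a group sum to 0 for each gene, so these values constrain one another and cannot decide whether libraries were paired. With the replicate number as a block, 6 members rose, 7 fell and 5124 genes were called. The block ended the calls of Tnfrsf22 and Tnfsf12. Members under 1 FPKM rest on few counts, so changes in them are detectable only when large.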
